A study of Mus musculus with 4 samples.

Results

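Basal and suprabasal epidermal keratins were described in 4 RNA-seq libraries of mouse back skin inflamed with imiquimod. The 9 genes were taken by symbol: Krt5, Krt14 and Krt15 as basal, and Krt1, Krt10, Krt2, Krt77, Krt78 and Krt80 as suprabasal keratins. All 9 were found among the 20611 gene symbols of the count tables, and all 9 passed the filter on low counts that left 15068 genes. Male BALB/c mice aged 8 to 9 weeks received 5% imiquimod cream, which activates Toll-like receptor 7 and brings on inflammation resembling psoriasis, at 47 mg per day on days 1 to 5, and skin was taken on day 6. One library came from skin with the cream alone (IMQ). In the other groups a lotion followed about 1 h after the cream: a vehicle lotion without the compound (IMQ+VEH, 2 libraries) or the lotion with IDMF (IMQ+IDMF, 1 library), isosorbide di-(methyl fumarate), which is a dimethyl fumarate pro-drug. Every group, the controls included, carried the imiquimod treatment, and untreated skin was not among the samples. The labels do not say whether RNA of several mice was pooled in a library.

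Keratins are the intermediate filament proteins of epithelia, and a filament is built from pairs of 1 type I and 1 type II chain. In the epidermis the dividing basal layer makes the pair Krt5 (type II) and Krt14 (type I). Cells that leave the basal layer switch to the pair Krt1 (type II) and Krt10 (type I), so the balance of both pairs is a common readout of differentiation. Krt15 is a further type I keratin of basal cells and of stem cells in the hair follicle bulge. Krt2 is a type II keratin of the upper layers, made in particular skin sites such as the ear, sole and tail of the mouse. Krt77, Krt78 and Krt80 are type II keratins of differentiating cells. In wounded and psoriatic epidermis the stress keratins Krt6, Krt16 and Krt17 are made as well.

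The type I genes lie on chromosome 11 and the type II genes on chromosome 15 (GENCODE M21, GRCm38). On chromosome 11, Krt10 spans 99385254 to 99389364, Krt15 spans 100131758 to 100135928 and Krt14 spans 100203162 to 100207548. On chromosome 15, Krt80 spans 101347444 to 101370162, Krt5 spans 101707070 to 101712898, Krt2 spans 101810689 to 101818169 and Krt1 spans 101845426 to 101850794. Krt77 follows at 101858731 to 101869705 and Krt78 at 101946001 to 101954287. All 9 are read from the minus strand. Exons of Krt5 overlap that of the miRNA gene Gm44323 on the other strand over 129 bases, exons of Krt10 overlap those of the antisense gene Gm11940 over 146 bases, and exons of Krt80 overlap those of the antisense gene Gm35853 over 263 bases. The sources used here do not give the strand setting of the counting, so reads from these overlaps cannot be told apart.

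Reads were 50 bases long, and keratin genes are close relatives, so the transcripts were searched for stretches that another gene shares. Krt14 was the member most like other keratins: 14.4% of its 50-base stretches occurred letter for letter in Krt16 or Krt17, and 48.5% matched another keratin within 2 mismatches. Of the stretches of Krt5, 12.2% occurred letter for letter in another gene (Krt6a, Krt6b, the predicted genes Gm5414 and Gm5478, or the overlapping Gm44323), and 14.7% matched another keratin within 2 mismatches, with Krt6a and Krt6b as the closest keratins. Krt1 shared no 50-base stretch with another gene, and for Krt10, Krt2, Krt77 and Krt78 at most 1.28% of stretches matched another keratin within 2 mismatches. The longest coding stretch that Krt14 shares with Krt16 is shown because reads inside it cannot be assigned to either gene by sequence. It covers 134 bases in exon 1 of Krt14, coding bases 306 to 439, at chr11:100207017-100207150 on the minus strand of GRCm38. Krt16 carries it at chr11:100248476-100248609 with 0 differences. The best matching windows of Krt17, Krt15 and Krt10, also in exon 1, differ from Krt14 at 28, 30 and 37 bases, which are in capitals.
Krt14: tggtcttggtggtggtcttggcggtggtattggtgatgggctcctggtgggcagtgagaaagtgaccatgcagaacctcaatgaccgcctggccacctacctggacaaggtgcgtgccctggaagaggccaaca
Krt16: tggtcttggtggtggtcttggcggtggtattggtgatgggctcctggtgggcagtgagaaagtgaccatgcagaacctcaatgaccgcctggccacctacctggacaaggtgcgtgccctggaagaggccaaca
Krt17: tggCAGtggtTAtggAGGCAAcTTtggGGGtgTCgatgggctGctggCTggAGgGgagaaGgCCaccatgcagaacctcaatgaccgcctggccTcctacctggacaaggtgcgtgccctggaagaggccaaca
Krt15: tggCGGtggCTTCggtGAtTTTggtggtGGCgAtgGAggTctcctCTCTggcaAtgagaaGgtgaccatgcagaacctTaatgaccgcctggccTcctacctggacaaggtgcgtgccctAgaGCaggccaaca
Krt10: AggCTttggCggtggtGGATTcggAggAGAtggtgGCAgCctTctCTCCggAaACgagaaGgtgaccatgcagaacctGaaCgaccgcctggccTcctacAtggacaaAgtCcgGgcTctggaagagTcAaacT

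Promoters are shown for 3 members whose levels contrast: Krt5 and Krt10, which differed little between the libraries, and Krt77, which differed most among the well-counted members. Sequences are from RefSeq (GRCm38.p6), which held 6 of the 9 genes; the Krt14 entry starts inside the gene and was not used. Each sequence covers the 250 bases before the start, on the minus strand, at chr15:101712906-101713155 for Krt5, chr11:99389365-99389614 for Krt10 and chr15:101869706-101869955 for Krt77. Capitals mark matches on either strand to a TATA box (TATAAA), to the core of sites bound by Klf factors (CACCC) or to a CCAAT box, and no matches overlap. Krt5 had 3 Klf core matches, Krt10 had 1 match to each of the 3 motifs, and Krt77 had 0. Only these exact letters were searched, so the absence of a match does not mean that a promoter lacks a TATA box. Near the start, Krt5 holds gataaaag and Krt77 holds gtatatatagg, which were not marked. Of 32851 promoter windows of this length, 12.4% held the TATA box, 52.0% the Klf core and 33.8% the CCAAT box. An AP-1 motif (TGANTCA, in 6.75% of windows) and an AP-2 motif (GCCNNNGGC, in 13.7%) were searched as well and had no match in these 3 windows, which says only that these letters are not there.
Krt5: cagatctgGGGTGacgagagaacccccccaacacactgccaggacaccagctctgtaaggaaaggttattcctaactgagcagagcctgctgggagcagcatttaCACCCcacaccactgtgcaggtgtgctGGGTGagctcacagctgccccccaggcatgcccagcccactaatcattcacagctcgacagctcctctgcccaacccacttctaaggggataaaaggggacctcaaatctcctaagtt
Krt10: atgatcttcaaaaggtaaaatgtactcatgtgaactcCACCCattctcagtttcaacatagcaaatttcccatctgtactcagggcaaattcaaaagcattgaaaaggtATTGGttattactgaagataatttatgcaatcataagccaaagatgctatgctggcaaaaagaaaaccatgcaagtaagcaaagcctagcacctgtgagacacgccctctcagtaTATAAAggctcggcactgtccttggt
Krt77: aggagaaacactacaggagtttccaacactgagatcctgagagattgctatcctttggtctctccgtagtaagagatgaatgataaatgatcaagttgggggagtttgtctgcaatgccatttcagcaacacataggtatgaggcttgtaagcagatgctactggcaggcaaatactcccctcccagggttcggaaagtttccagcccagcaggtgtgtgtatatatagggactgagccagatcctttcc

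Total counts were 21167149 to 26639628 per library, with 16016 to 16648 genes detected. The 9 keratins took 5.44% of all counts in IMQ, 4.50% and 5.12% in IMQ+VEH replicates 1 and 2, and 4.93% in IMQ+IDMF. The summed level of 20 genes expressed throughout the epidermis, none of them a keratin, differed between the libraries. It was 15255 CPM (counts scaled to library size) in IMQ, 10566 and 14367 in IMQ+VEH and 12400 in IMQ+IDMF. Sfn, which is among the 20 and also in the list of spinous layer genes below, was highest in IMQ+VEH replicate 2. It stood at 1695 CPM in IMQ, 1240 and 2647 in IMQ+VEH and 2137 in IMQ+IDMF. Relative to the sum of the 20 genes, the 9 keratins together stood at 3.70 in IMQ, 4.05 and 3.68 in IMQ+VEH and 3.91 in IMQ+IDMF. This was a narrower range than that of the epidermal sum itself, but the classes differed. The basal keratins stood at 0.984 in IMQ, 0.815 and 0.635 in IMQ+VEH and 0.859 in IMQ+IDMF, highest in IMQ. The largest part of the basal sum was Krt14, at 9905 CPM in IMQ, 4540 and 4677 in IMQ+VEH and 5334 in IMQ+IDMF. Krt5 was instead highest in IMQ+IDMF, at 4556, 3727, 4056 and 4878 CPM in the same order. Krt15 stood at 546, 343, 384 and 438 CPM. Relative to the 20 genes, the suprabasal keratins stood at 2.71, 3.23, 3.04 and 3.05 in the same order, lowest in IMQ. The 10 fibroblast markers summed to 2118 CPM in IMQ, 8040 and 4284 in IMQ+VEH and 2815 in IMQ+IDMF, and adipocyte and skeletal muscle markers were also lowest in IMQ and highest in IMQ+VEH replicate 1. In these bulk samples fewer cells of a type and less RNA per cell cannot be told apart. The defining epidermal markers Krt5, Krt14, Krt1, Krt10, Trp63, Cdh1, Dsp and Lor were present in every library. Flg was not analysed here.

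The levels of the 9 genes, in deposited FPKM (counts corrected for transcript length and library size), spanned more than 4 orders of magnitude. Krt10 stood at 6715 FPKM in IMQ, 6773 and 7855 in IMQ+VEH, and 7018 in IMQ+IDMF. Its partner Krt1 stood at 6832 FPKM in IMQ, 5842 and 7002 in IMQ+VEH, and 6119 in IMQ+IDMF. This suprabasal pair ranked among the 10 most abundant of all genes in every library. The values of Krt10 and Krt1 overlapped within the IMQ+VEH pair (means 7314 ± 766 and 6422 ± 821 FPKM, SD, n = 2).

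Krt14 came next, at 4712 FPKM in IMQ, 2414 and 2287 in IMQ+VEH, and 2656 in IMQ+IDMF. Its basal partner Krt5 stood at 1590.0 FPKM in IMQ, 1454 and 1455 in IMQ+VEH, and 1781 in IMQ+IDMF. IMQ was thus high for Krt14 and lay among the others for Krt5. Krt15 stood at 249 FPKM in IMQ, 175 and 180.4 in IMQ+VEH, and 209 in IMQ+IDMF. The gaps between Krt14, Krt5 and Krt15 were larger than the spread of the IMQ+VEH pair, whose means were 2350.3 ± 89.5, 1454 ± 1.13 and 178 ± 3.71 FPKM (SD, n = 2).

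The remaining suprabasal keratins were far less abundant. Krt78 stood at 103 FPKM in IMQ, 73.3 and 97.5 in IMQ+VEH, and 88.8 in IMQ+IDMF, and Krt80 stood at 104 FPKM in IMQ, 95.3 and 103 in IMQ+VEH, and 76.7 in IMQ+IDMF. The values of these neighbours overlapped within the IMQ+VEH pair (85.4 ± 17.1 and 98.9 ± 5.13 FPKM in IMQ+VEH, SD, n = 2). Krt77 stood at 67.2 FPKM in IMQ, 16.4 and 36.7 in IMQ+VEH, and 23.8 in IMQ+IDMF, so that IMQ was highest and the IMQ+VEH pair enclosed IMQ+IDMF. Krt2 was close to the limit of detection: it had 10 counts in IMQ, 16 and 10 in IMQ+VEH and 2 in IMQ+IDMF, the last below a floor of 3 counts.

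**Figure D1:**
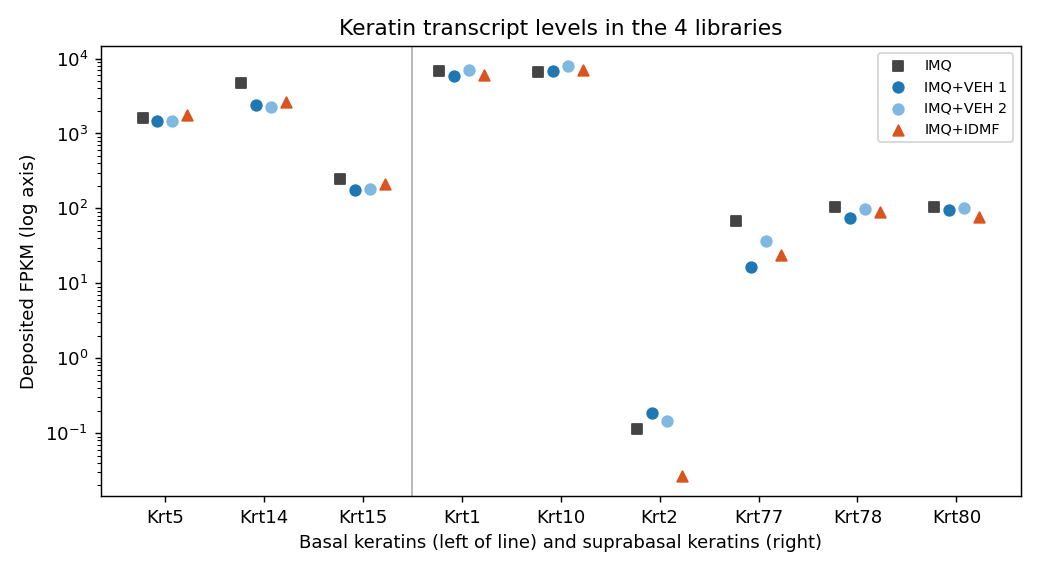
Deposited FPKM (log axis) of the 9 keratins, basal on the left and suprabasal on the right, with 1 point per library. Krt1 and Krt10 lie highest and close together in every library, Krt14 is highest in IMQ (4712 FPKM), Krt77 is highest in IMQ (67.2 FPKM) and Krt2 lies below 0.2 FPKM throughout.

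IMQ+VEH was first set against IMQ, which addresses the effect of the vehicle itself on keratins of imiquimod-treated skin. Of the 9 keratins, 7 were lower than IMQ in both IMQ+VEH libraries, all 3 basal and 4 of the 6 suprabasal keratins, and 1 (Krt2) was higher in both. Over all tested genes 35% were below IMQ in both libraries and 33.6% above, and among the 5742 genes with a mean log2 CPM of at least 5 the share below was 40.9%. By edgeR's quasi-likelihood test 0 of the 9 passed an adjusted p of 0.05, against a background of 0.664% of genes called (100 of 15068). One member, Krt77, had an unadjusted p under 0.05, as did 8.81% of all genes. DESeq2 called 1 member, Krt14, and 1.49% of all genes (200 of 13449), and limma on FPKM called 0 members and 0.192% of genes.

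Among the basal keratins, Krt14 had a log2 fold change of -1.10 (SE 0.73, edgeR adjusted p = 0.80, 95% interval -2.69 to 0.48), which is 0.465 times the IMQ level. DESeq2 gave -1.10 with an adjusted p of 0.0294, and the adjusted p over all alternatives ran from 0.0294 to 0.97. IMQ+VEH replicates 1 and 2 lay below IMQ by similar amounts, with log2 CPM differences of -1.13 and -1.08. The pair itself differed by 0.04, far less than the standard error. Fitted without a trend of the spread on abundance, an alternative added after seeing the data, the SE was 0.32 and the edgeR adjusted p 0.275. Krt15 had a log2 fold change of -0.59 (SE 0.35, edgeR adjusted p = 0.741), and Krt5 had -0.23 (SE 0.67, edgeR adjusted p = 0.996). Without the trend the SE was 0.29 for Krt15 and 0.32 for Krt5.

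Among the suprabasal keratins, Krt77 had the lowest value, with a log2 fold change of -1.42 (SE 0.39, edgeR adjusted p = 0.179), which is 0.374 times the IMQ level. Its differences to IMQ were -2.19 for replicate 1 and -0.91 for replicate 2, and the IMQ+VEH pair differed by 1.28. Krt77 was called by edgeR when no filter on low counts was used (adjusted p = 6.6e-05), where 2.42% of genes were called (424 of 17527). Krt78 had a log2 fold change of -0.36 (SE 0.37), Krt1 of -0.18 (SE 1.08), Krt80 of -0.16 (SE 0.30) and Krt10 of 0.03 (SE 1.06). Without the trend of the spread on abundance the SE was 0.34 for Krt1 and 0.34 for Krt10. Krt2, with its few counts, had 0.43 (SE 1.17). When library size was set by the 20 pan-epidermal genes, the median of all genes moved by 0.33, and Krt5, Krt1 and Krt80 then lay above IMQ (0.088, 0.12 and 0.14), while Krt14 and Krt77 stayed below it.

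IMQ+IDMF was then set against IMQ+VEH, which addresses the effect of IDMF beyond that of its lotion. The basal keratins Krt5, Krt14 and Krt15 stood above both vehicle libraries in IMQ+IDMF, and 0 of the 6 suprabasal keratins were. The suprabasal keratins Krt80 and Krt2 were lower than in both, and Krt1, Krt10, Krt77 and Krt78 lay between the IMQ+VEH libraries. Over all tested genes 27.7% were above both and 27.5% below both. None of the 9 passed by edgeR, where the background was 0% of 15068 genes called. None had an unadjusted p under 0.05 (2.03% of all genes did), and DESeq2 and limma also called 0 members and 0% of genes.

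Krt5 had a log2 fold change of 0.33 (SE 0.67), with log2 CPM differences of 0.39 and 0.27 to replicates 1 and 2. Krt14 had 0.21 (SE 0.75), with differences of 0.23 and 0.19, and Krt15 had 0.27 (SE 0.36), with differences of 0.35 and 0.19. Each of these sizes was within 1 standard error of 0, where the standard errors come from the fit with a trend of the spread on abundance. In all 3 the IMQ+VEH pair lay closer together (0.12, 0.04 and 0.16) than IMQ+IDMF lay to either replicate. For Krt15 the margin was small, 0.16 against 0.19. The share of all genes with this pattern was not counted. The edgeR adjusted p was 1 for every member in this comparison. Krt5, Krt14 and Krt15 are also made in the hair follicle. Its 11 bulge and outer root sheath markers summed to 3134 CPM in IMQ, 3810.0 and 4266 in IMQ+VEH and 4278 in IMQ+IDMF. Most of this sum came from Krt79 and Krt17, and Krt17 is also a stress keratin. Krt17 stood at 1622, 1524, 1830 and 1928 CPM in the same order, and Krt79 at 869, 1374, 1767 and 1702 CPM. Of the 11 markers, 6 lay above and 4 below IMQ in both IMQ+VEH libraries, beside 33.6% and 35% of all genes. Those below were Lgr5, Lhx2, Tbx1 and Gas1. In IMQ+IDMF, 5 of 11 lay above and 4 below both IMQ+VEH libraries, beside 27.7% and 27.5% of all genes. Those above were Lgr5, Lhx2, Sox9, Tbx1 and Krt17, and those below Cd34, Nfatc1, Postn and Ctgf. Lhx2 stood at 21.5 CPM in IMQ, 10.3 and 11.6 in IMQ+VEH and 28.7 in IMQ+IDMF. Lgr5 stood at 9.2, 6.1, 6.0 and 7.5 CPM in the same order. Hair shaft and inner root sheath markers were instead highest in IMQ. They summed to 273 CPM in IMQ, 112 and 158 in IMQ+VEH and 155 in IMQ+IDMF. Most of this sum came from Dlx3 and Gata3, and Gata3 is also in the list of differentiation regulators below. Gata3 stood at 116 CPM in IMQ, 66.1 and 102 in IMQ+VEH and 86.4 in IMQ+IDMF. Dlx3 stood at 53.9, 32.4, 38.6 and 32.6 CPM in the same order. All 13 hair shaft and inner root sheath markers that were tested lay below IMQ in both IMQ+VEH libraries, beside 35% of all genes. Their median log2 fold change was -2.21, and edgeR called 5 of 13 lower, beside 0.325% of all genes. In IMQ+IDMF, 10 of 13 lay above both IMQ+VEH libraries (27.7% of all genes) and 0 below both (27.5%). The median there was 0.92, and 0 were called, beside 0% of all genes. The part of hair follicle content in the basal values was not tested.

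Krt80 was the well-counted suprabasal keratin outside the IMQ+VEH pair, with a log2 fold change of -0.34 (SE 0.31) and differences of -0.22 and -0.44 to the single libraries. The pair itself differed by 0.22 for Krt80. Krt1 and Krt10 had log2 fold changes of -0.05 (SE 1.09) and -0.03 (SE 1.06), and Krt78 had 0.08 (SE 0.38). For these 3 the direction depended on the vehicle library: IMQ+IDMF differed from replicates 1 and 2 by 0.15 and -0.22 for Krt1, by 0.15 and -0.19 for Krt10, and by 0.37 and -0.16 for Krt78. Krt77 had -0.14 (SE 0.41), with 0.63 and -0.65 to the single libraries. For Krt2 the ratio of IMQ+IDMF to IMQ+VEH was 0.167 from 2 against 26 counts, with an exact 95% interval of 0.0192 to 0.667 that covers counting error only.

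IMQ+IDMF against IMQ set 1 library against 1, with the spread taken from the IMQ+VEH pair, and shares these libraries with both comparisons above. By edgeR 0 of the 9 passed, against 0.305% of all genes (46 of 15068; 0.126% higher). Krt77 had an unadjusted p under 0.05, as did 6.77% of genes, with a log2 fold change of -1.56 (SE 0.48, edgeR adjusted p = 0.371). Krt14 had -0.89 (SE 0.88, edgeR adjusted p = 1), Krt80 had -0.50 (SE 0.35) and Krt15 had -0.32 (SE 0.42). Krt5 and Krt10 lay near IMQ, at 0.10 (SE 0.78) and -0.0019 (SE 1.22). With IMQ and IMQ+VEH taken as 1 group of 3 libraries, edgeR also called 0 of the 9, and 0% of 15068 genes, against IMQ+IDMF; 1.11% of all genes and 0 members had an unadjusted p under 0.05, and DESeq2 called 0 members and 0.00571% of genes. Without a filter on low counts edgeR called Krt77 for IMQ+IDMF against IMQ, and 1.46% of all genes.

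**Figure D2:**
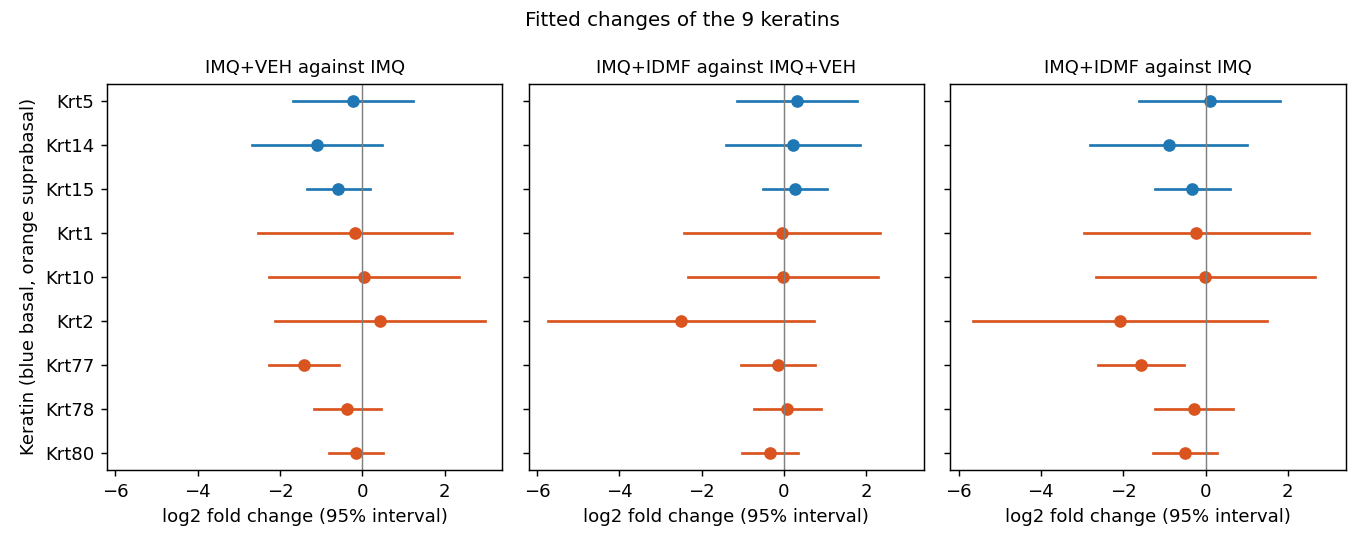
Fitted log2 fold changes of the 9 keratins in 3 comparisons, with 95% intervals from edgeR; basal keratins are blue and suprabasal keratins orange, and IMQ+IDMF and IMQ are 1 library each. Krt77 has intervals that do not reach 0 against IMQ (-2.27 to -0.57 for IMQ+VEH), the intervals of Krt1 and Krt10 are wide, and none of the 9 passed after adjustment over 15068 genes.

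The balance of the filament pairs was read from FPKM ratios within each library. Krt5 to Krt14 was 0.337 in IMQ, 0.602 and 0.636 in IMQ+VEH, and 0.671 in IMQ+IDMF. IMQ stood apart from the 3 lotion libraries, which lay close together. Krt1 to Krt10 was 1.02 in IMQ, 0.862 and 0.891 in IMQ+VEH, and 0.872 in IMQ+IDMF, a much narrower range. The suprabasal pair thus kept its ratio more closely than the basal pair, in which Krt14 differed between the libraries by up to 2.06 times and Krt5 by up to 1.23 times. An exact permutation test of 1 library against 3 cannot give a p below 0.25, so these ratios are described without a test.

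Krt14 varied along with its near relative Krt16. The FPKM ratio of Krt14 to Krt16 was 1.54 in IMQ, 1.45 and 1.55 in IMQ+VEH, and 1.76 in IMQ+IDMF, while Krt14 to Krt17 was 5.48 in IMQ, 2.68 and 2.29 in IMQ+VEH, and 2.48 in IMQ+IDMF. Krt16 had 152125 counts in IMQ, 82262 and 57716 in IMQ+VEH and 63259 in IMQ+IDMF, and Krt17 had 41163, 42740, 37527 and 43113 counts in the same order. Krt14 counts were 251380 in IMQ, 127350 and 95883 in IMQ+VEH and 119288 in IMQ+IDMF. The part that reads shared between Krt14, Krt16 and Krt17 had in these counts was not tested. Krt5 did not vary with its relative Krt6a: Krt5 to Krt6a was 1.20 in IMQ, 3.13 and 4.62 in IMQ+VEH, and 5.16 in IMQ+IDMF.

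The contrast of the classes was summarised in the same way. Summed suprabasal to summed basal FPKM was 2.11 in IMQ, 3.17 and 3.85 in IMQ+VEH, and 2.87 in IMQ+IDMF. IMQ had the lowest ratio, and IMQ+IDMF lay between IMQ and both IMQ+VEH libraries. Most of the difference to IMQ sat in the basal sum, which was 6551 FPKM in IMQ, 4042 and 3923 in IMQ+VEH, and 4646 in IMQ+IDMF. Within that sum most of the difference was Krt14, at 4712 FPKM in IMQ, 2414 and 2287 in IMQ+VEH, and 2656 in IMQ+IDMF. Krt5 stood at 1590.0, 1454, 1455 and 1781 FPKM in the same order, highest in IMQ+IDMF. The ratio without Krt14 was not computed, so the order of the libraries is given for sums that include Krt14. The suprabasal sum was 13822 FPKM in IMQ, 12800 and 15095 in IMQ+VEH, and 13326 in IMQ+IDMF, so here the IMQ+VEH pair enclosed the other libraries.

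By medians of the log2 CPM difference, which give each keratin the same weight, IMQ+VEH against IMQ had -0.59 for the basal and -0.18 for the suprabasal keratins, beside -0.01 for all tested genes. IMQ+IDMF against the IMQ+VEH mean had 0.27 for the basal and -0.03 for the suprabasal keratins, beside 0.0068 for all tested genes. Suprabasal minus basal was therefore 0.41 and -0.30 in these comparisons, and 0.23 between the IMQ+VEH replicates, which had the same treatment. IMQ+VEH replicate 2 had a sequencing core number apart from those of the rest, and the labels do not say whether it was prepared or sequenced together with them. Against IMQ+VEH replicates 1 and 2 taken singly, IMQ+IDMF had -0.20 and -0.52. For IMQ+IDMF against IMQ the value was -0.07, and it was 0.44 by summed FPKM, in which Krt14 weighs most among the basal keratins. The suprabasal median gives full weight to Krt2, with 10 counts in IMQ and 2 in IMQ+IDMF. Without Krt15, Krt2, Krt77 and Krt80 the value by medians was positive.

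**Figure D3:**
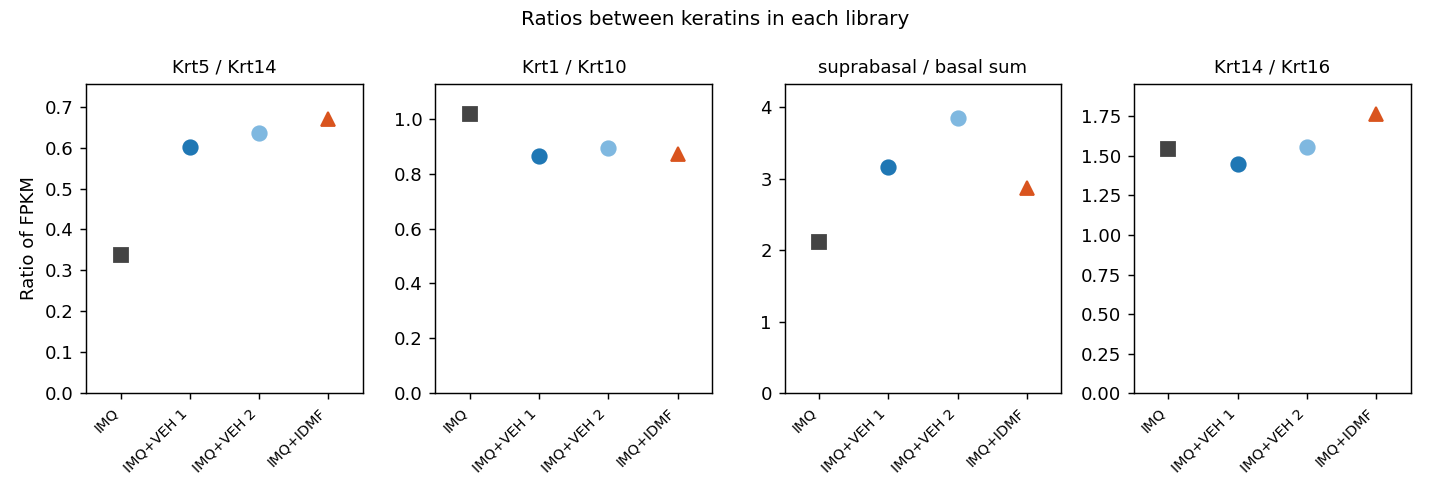
Ratios of FPKM in each library, 1 point per library, all axes from 0: Krt5 to Krt14, Krt1 to Krt10, the summed suprabasal to summed basal keratins, and Krt14 to Krt16. Krt5 to Krt14 is 0.337 in IMQ and 0.602 to 0.671 in the lotion libraries, while Krt1 to Krt10 stays between 0.862 and 1.02.

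Other genes of the same layers were taken as lists. Genes that anchor and specify basal cells (12 tested) had a median log2 fold change of -0.10 for IMQ+VEH against IMQ and 0.32 for IMQ+IDMF against IMQ+VEH, beside 0.0025 and -0.0083 for all tested genes. Of the 12, 10 were above both IMQ+VEH libraries in IMQ+IDMF and 0 below both, where 27.7% and 27.5% of all genes were. Examples were Itga6, the integrin chain of hemidesmosomes, with 4393 counts in IMQ+IDMF against 4238 and 3052 (log2 fold change 0.39, SE 0.28), Col17a1, a hemidesmosome collagen (0.50, SE 0.36), and Itgb4 (0.34, SE 0.26). Trp63, the transcription factor that keeps basal identity and drives Krt5 and Krt14, had 0.30 (SE 0.34). None of the 12 passed the edgeR threshold in either comparison. The basal keratins and these basal genes thus lay on the same side of IMQ+VEH in the IMQ+IDMF library, while against IMQ the medians were -0.32 for the keratins, of which Krt5 was higher than in IMQ, and 0.26 for the list.

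Spinous layer genes (15 tested) had a median of -0.31 for IMQ+VEH against IMQ and -0.07 for IMQ+IDMF against IMQ+VEH. Like Krt1 and Krt10, they split by vehicle library: IMQ+IDMF had a median of 0.25 against replicate 1 and of -0.31 against replicate 2, and between the replicates it was 0.51. Of these genes 0 of 15 lay above and 3 of 15 below both IMQ+VEH libraries, where 27.7% and 27.5% of all genes did, the 3 being Them5, Dsc1 (a desmosomal cadherin) and Dmkn. Krtdap and Sbsn, secreted products of differentiating cells, had log2 fold changes of -0.19 (SE 0.64) and 0.02 (SE 0.59), Ivl, a cornified envelope precursor, had -0.09 (SE 0.42), and Dsg1a had -0.22 (SE 0.48). Dsc1 itself had -0.67 (SE 0.45) for IMQ+VEH against IMQ and -0.12 (SE 0.46) for IMQ+IDMF against IMQ+VEH. None of the 15 passed.

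Granular and cornified layer genes (19 tested) had a median of -0.44 for IMQ+VEH against IMQ, with 13 of 19 below IMQ in both libraries (35% of all genes, 40.9% of the well-counted ones), and -0.08 for IMQ+IDMF against IMQ+VEH. Rptn had 51065 counts in IMQ, 22570 and 16033 in IMQ+VEH and 14550 in IMQ+IDMF (log2 fold change of IMQ+VEH against IMQ -1.34, SE 0.44, edgeR adjusted p = 0.31). Casp14, a protease of cornification, had -0.99 (SE 0.49) in the same comparison, and Lor, the main cornified envelope protein, had -0.20 (SE 0.69). Spink5, a protease inhibitor of the upper layers, had -0.35 (SE 0.41) for IMQ+IDMF against IMQ+VEH. IMQ+IDMF lay below both IMQ+VEH libraries for 5 of the 19 genes and above both for 0, beside 27.5% and 27.7% of all genes. None passed.

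Regulators of differentiation (26 tested) had a median of -0.34 for IMQ+VEH against IMQ, with 21 of 26 below IMQ in both libraries (35% of all genes, 40.9% of the well-counted ones), and 0.04 for IMQ+IDMF against IMQ+VEH. Klf4, a factor of barrier formation, had 16451 counts in IMQ, 11409 and 12899 in IMQ+VEH and 12266 in IMQ+IDMF (-0.32, SE 0.41, against IMQ). Ovol1 had -0.69 (SE 0.27), Grhl3 -0.47 (SE 0.29), Zfp750 -0.48 (SE 0.29) and Notch3 -0.31 (SE 0.27) in that comparison. In IMQ+IDMF against IMQ+VEH, Elf3 had -1.37 (SE 0.53, 45 counts against 165 and 92), Prdm1 -0.49 (SE 0.27), and Jag2, a Notch ligand, 0.54 (SE 0.26). None of the 26 passed by edgeR.

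Desmosome and keratin linker genes (13 tested), which tie keratin filaments to the cell surface, had a median of -0.35 for IMQ+VEH against IMQ and 0.0054 for IMQ+IDMF against IMQ+VEH. In both vehicle libraries 10 of the 13 lay below IMQ, beside 35% of all genes and 40.9% of the well-counted ones. Dsg3, a desmosomal cadherin of lower layers, had 2579 counts in IMQ, 2287 and 1137 in IMQ+VEH and 2140 in IMQ+IDMF (0.48, SE 0.29, for IMQ+IDMF against IMQ+VEH). The 20 pan-epidermal genes had medians of -0.31 and 0.0046 in these comparisons, so the differences of several differentiation lists to IMQ were near that of epidermal genes as a whole. The part of epidermal content in these values was not tested.

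**Figure D4:**
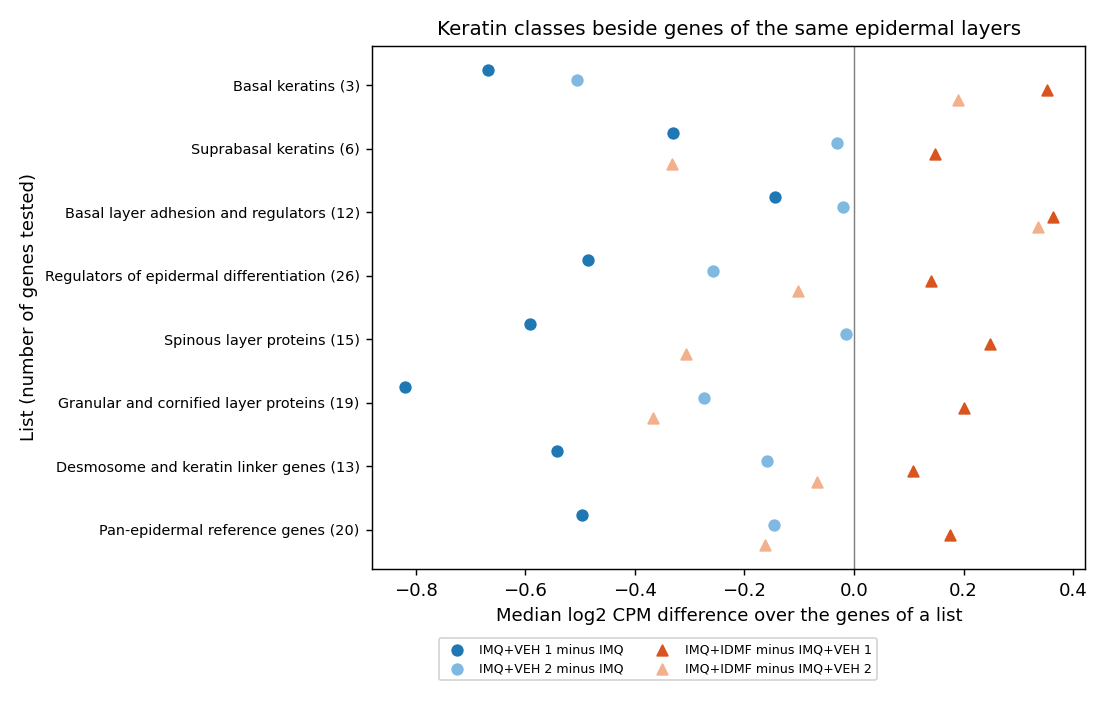
Median log2 CPM differences over the keratin classes and the lists of genes of the same layers, for each IMQ+VEH library against IMQ (circles) and for IMQ+IDMF against each IMQ+VEH library (triangles). The basal keratins and the basal list lie above 0 for both triangles (0.35 and 0.19, and 0.36 and 0.34), while the suprabasal keratins and the spinous and granular lists lie on either side of 0.

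The genes whose pattern over the 4 libraries was most like that of a leading keratin were found among 5632 genes with a mean log2 CPM of at least 5, leaving out the 9 keratins and genes with predicted or clone names, by the root mean square difference of centred log2 CPM. For Krt14 these were Myo5b (0.08), Aldh3b3 (0.08), Enah (0.08) and Tdh (0.09), where Krt14 itself had an SD of 0.53. Each was high in IMQ: Myo5b, a myosin motor, had 2514 counts in IMQ, 1421 and 1083 in IMQ+VEH and 1225 in IMQ+IDMF. For Krt10 they were Spry1, G6pdx, Adgrg1 and Tomm7 (0.0067 to 0.01). Krt10 had an SD of 0.14, so this set holds genes that differed little between the libraries.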

How the data were processed

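For each library the authors deposited a table of 20611 gene symbols with a raw count and an FPKM value, per the file headers. TopHat2, HTSeq and Cufflinks, with GRCm38 and mm10 as builds, are listed in the submitters' processing notes; the sources used here give no versions, strand setting or treatment of multiply mapped reads. The deposited FPKM values follow the counts: for 85.6% to 87.3% of 10981 genes the ratio of count to FPKM was within 1% of one factor per library. Sequencing was single-end with 50 cycles, per the labels' protocols.

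Counts were fitted over all 4 libraries with edgeR 4.0.16 under R 4.3.3, with TMM, filterByExpr, 1 mean per group and the two-sided quasi-likelihood test, adjusted by Benjamini-Hochberg over 15068 genes at 0.05. The IMQ+VEH pair gave the 1 residual degree of freedom, beside 11.2 prior ones, and single libraries were assumed to vary like that pair. The series' design text gives the libraries as independent biological samples. A secondary fit set IMQ+IDMF against the other libraries (2 residual degrees of freedom). The SE is |log2 fold change| over the root of the F statistic. CPM used TMM library sizes, and log2 CPM a prior count of 2. A floor of 3 counts equals 0.107 to 0.146 CPM. Gene positions and transcripts were from GENCODE M21.

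The 9 keratins and all lists were chosen with earlier results of these data known. From each list, up to 3 genes with a mean log2 CPM of at least 1 were named, those with IMQ+IDMF farthest outside the IMQ+VEH pair, together with a preset list of regulators and layer markers; 1 such gene, Flg, was not analysed here. Alternatives were DESeq2 1.42.0, other library sizes, other filters, a robust fit, limma 3.58.1 on log2(FPKM + 1) and leaving out libraries.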

Additional observations from a re-analysis of the deposited data

How the results depend on the processing

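No paired analysis was possible because IMQ and IMQ+IDMF have 1 library each. The single IMQ and IMQ+IDMF libraries cannot be left out of their own comparisons, and leaving out an IMQ+VEH library left no residual degree of freedom, so those values have no test. Of the 9 keratins, 0 passed in each edgeR comparison, and this became 1 for IMQ+VEH against IMQ by DESeq2 (Krt14) and without a filter (Krt77), and 1 for IMQ+IDMF against IMQ without a filter (Krt77, adjusted p = 0.000818); the cause was not tested. Over all genes, 100 calls for IMQ+VEH against IMQ became 200 by DESeq2, 424 without a filter, 29 by limma, and, in alternatives added after seeing the data, 44 without the trend on abundance and 55 with the 3 lotion libraries as 1 group. With pan-epidermal library sizes 89 of 119 calls were higher, against 51 of 100. For IMQ+IDMF against IMQ, 46 calls became 126, 256, 24 with total counts, 8 by limma and 11 without the trend, and for IMQ+IDMF against IMQ+VEH 0 became 16 without a filter and 1 with pan-epidermal library sizes.

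Suprabasal minus basal for IMQ+VEH against IMQ was 0.41 as a median of log2 CPM differences, 0.34 to 0.48 leaving out either IMQ+VEH library, and 0.73 by summed FPKM of both. For IMQ+IDMF against IMQ+VEH it ran from -0.52 to -0.20 leaving out either library. For IMQ+IDMF against IMQ, -0.07 became 0.44 by summed FPKM, 0.064 by log2(FPKM + 1) and 0.17 without Krt15, Krt2, Krt77 and Krt80.

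Of the keratin fold changes, these turned direction under at least 1 alternative. With pan-epidermal library sizes IMQ+VEH against IMQ became 0.088 for Krt5, 0.12 for Krt1 and 0.14 for Krt80, and IMQ+IDMF against IMQ became 0.070 for Krt1, 0.30 for Krt10 and 0.018 for Krt78. Krt10 in that comparison was also 0.076 with total counts, 0.0029 with a mean count of at least 50 and 0.064 by limma. Against the 3 other libraries Krt10 was 0.014 with total counts and 0.070 with pan-epidermal library sizes, where Krt78 was 0.069. Leaving out 1 library at a time, that comparison ran from -0.087 to 0.27 for Krt15, -0.10 to 0.070 for Krt10, -0.22 to 0.081 for Krt78 and -0.45 to 0.21 for Krt14. Leaving out either IMQ+VEH library, IMQ+VEH against IMQ ran from -0.15 to 0.19 for Krt10, and IMQ+IDMF against IMQ+VEH from -0.22 to 0.15 for Krt1, -0.19 to 0.15 for Krt10, -0.65 to 0.63 for Krt77 and -0.16 to 0.37 for Krt78. For IMQ+VEH against IMQ, Krt2 was -0.029 with the 3 lotion libraries as 1 group.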

Other observations

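Krt77 was not among the genes for which a likeness was planned, and its nearest genes were looked up after its values were seen. The nearest was Sprr1b, a cornified envelope precursor, with a root mean square difference of 0.12 on the log2 scale where Krt77 had an SD of 0.94 over the 4 libraries. Sprr1b had 19373 counts in IMQ, 5616 and 9104 in IMQ+VEH and 7218 in IMQ+IDMF, and Krt77 had 3729, 899, 1601 and 1112 counts in the same order. Both were lowest in IMQ+VEH replicate 1. The other near genes were Degs2 (0.25), Sprr2h (0.28) and Klk9 (0.31). With 4 libraries there are too few values for a test of this likeness.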
